A study of Caenorhabditis elegans with 18 samples.

Results

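A cassette exon is an internal exon that a transcript either includes or skips, and 729 of the 4703 cassette exon events measured in these worms concerned an exon of at most 75 nt. The members were taken by length alone, as the end minus the start of the exon in the union of the deposited splicing tables, so that neither reads nor inclusion levels entered the choice. They were 685 distinct exons of 615 *C. elegans* genes, because 38 exons were listed in more than 1 event with different flanking exons. Their median length was 60 nt and the shortest had 12 nt, against a median of 154 nt for the exons of the 3974 longer events.

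The study asked how cadmium and the loss of 2 RNA processing factors change mRNA splicing, and the 18 libraries fell into 6 groups of 3. The groups were *ints-4(RNAi)*, *numr-1/2(RNAi)* and *control(RNAi)*, each transferred at the late L3 stage to agar with 300 μM cadmium or to agar with 0 μM cadmium for 12 h. Every group was made of whole, pooled animals of the wild type strain N2 with no transgene or mutation, fed bacteria that express double-stranded RNA from L1 onwards, the control clone having no worm target. *ints-4* encodes a subunit of integrator, the complex that cuts the 3′ ends of the small nuclear RNAs of the spliceosome, and *numr-1* and *numr-2* are adjacent identical copies of a gene for a nuclear protein with an RNA recognition-like motif, so that 1 clone targets both. RNAi by feeding lowers a transcript without removing it, and it often acts weakly in neurons.

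The spliceosome usually finds an exon through factors that bind at both of its ends and contact each other across it, and a very short exon leaves these factors little room. Such exons therefore tend to depend on enhancer sequences in the flanking introns and on RNA-binding proteins of particular cell types. In animals the shortest exons, called microexons, are best known from neurons and muscle, where many have a length divisible by 3 and add or remove a few amino acids without shifting the reading frame.

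In the authors' pooled expression values, which carry no replicate error, *ints-4* stood at 642 in *ints-4(RNAi)* against 1484 in *control(RNAi)*. Without cadmium *numr-1* stood at 1.92 and *numr-2* at 28.6 in *numr-1/2(RNAi)*, against 3.11 and 24.1 in *control(RNAi)*, so that *numr-2* was not lower. With cadmium *numr-1* reached 51.3 in *numr-1/2(RNAi)* and 234 in *control(RNAi)*, values that come from separately scaled tables. Stage-dependent transcripts also differed between groups, and their values are given beside 5 of the 7 comparisons. For the comparisons of RNAi clones with cadmium none are given, because the pooled values lie in separately scaled tables. Libraries held 48704 to 71694 reads over the short exon events read in all 18 libraries, with a median of 114 to 124 reads per tested event and library. The study describes the 3 libraries of each group as biological replicates.

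The shortest exons were mostly skipped and those near the length limit were mostly included. The inclusion level, the share of transcripts that carry the exon after the authors' correction for the length each form offers to reads, was compared over exons with at least 10 reads in each *control(RNAi)* library. Its median was 18.3% for the 30 exons of at most 27 nt, with quartiles of 9.48% and 36.3%. For the 141 exons of 28 to 54 nt the median was 64.7%, with quartiles of 15.8% and 99.8%. For the 293 exons of 55 to 75 nt it was 99.7%, with quartiles of 82.3% and 100%. An exon of 55 nt or more was thus most often nearly constitutive, while the middle class was spread over the whole scale.

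**Figure D1:**
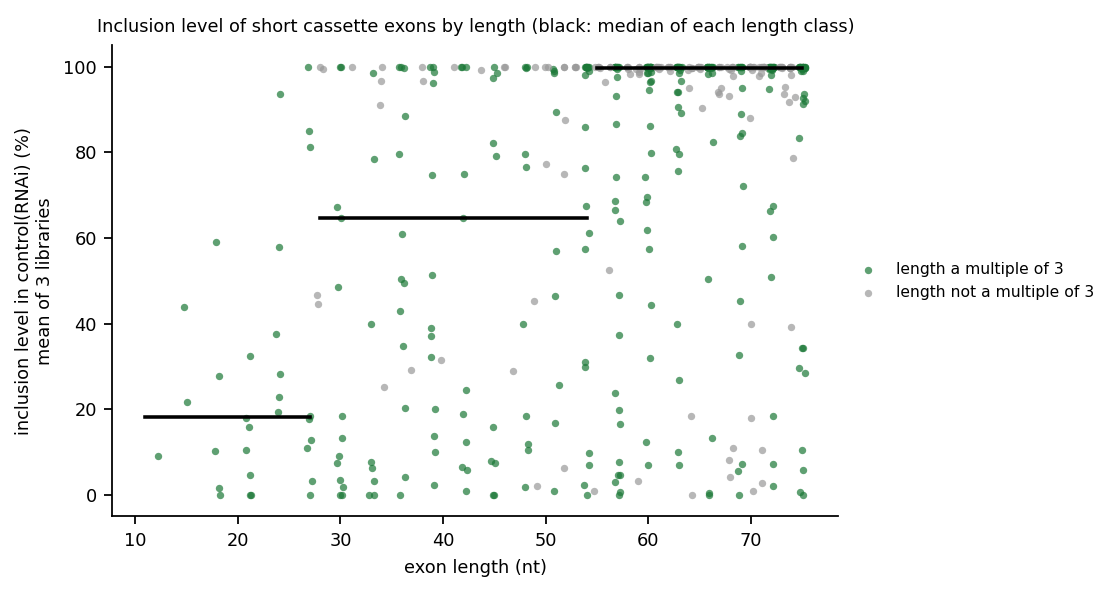
Mean inclusion level in the 3 *control(RNAi)* libraries (y axis, percent) against exon length (x axis, nt). Each point is 1 short exon with at least 10 reads in each of these libraries, green where the length is a multiple of 3 and grey where it is not. The black lines mark the medians of 18.3%, 64.7% and 99.7% for exons of at most 27, 28 to 54 and 55 to 75 nt.

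Alternative use was commonest in the shortest class. A *control(RNAi)* level between 5% and 95% was held by 22 of the 30 exons of at most 27 nt (73.3%), by 71 of the 141 of 28 to 54 nt (50.4%) and by 82 of the 293 of 55 to 75 nt (28%). Over all lengths up to 75 nt this was 175 of 464 exons (37.7%), against 408 of 2783 longer cassette exons (14.7%). At 5% or below lay 7, 18 and 17 exons of the 3 length classes, and at 95% or above 1, 52 and 194. The limit of 75 nt itself marked no step, since the median was 99.6% for the 53 exons of 73 to 75 nt with enough reads and 100% for the 56 exons of 76 to 78 nt. These shares are descriptions, and the difference between short and longer exons was not tested.

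The level of a very short exon rests strongly on the length correction. The share of inclusion reads among all reads of an event, before the correction, had a median of 4.26% for exons of at most 27 nt, 52.3% for 28 to 54 nt and 99.6% for 55 to 75 nt. The median length credited to the inclusion form was 20.5, 46 and 89 nt in these classes, against 128, 106 and 107 nt for the skipping form. In 592 of the 685 short exons the inclusion form was credited with the smaller length, which was the case for 0 of the 3709 longer exons. A single inclusion read therefore moves the level of a short exon further than that of a longer one.

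Nearly all short exons lay in coding sequence, and their lengths favoured the reading frame. Of the 685 exons, 620 (90.5%) were coding in the WBcel235 annotation, 24 were partly coding, 17 were untranslated or non-coding and 24 were not annotated as exons. Of the coding ones 422 (68.1%) had a length divisible by 3, against 1801 of 3461 longer coding exons (52%). This share was 95.2% in exons of at most 27 nt, 78.2% in those of 28 to 54 nt and 60.3% in those of 55 to 75 nt. A transcript that skips the exon was annotated for 86.4%, 53.4% and 29.6% of exons in these classes, and for 13.7% of longer ones. Microexons in these tables were thus mostly known alternative exons, whereas for most exons near the limit the annotation holds the included form alone.

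**Figure D2:**
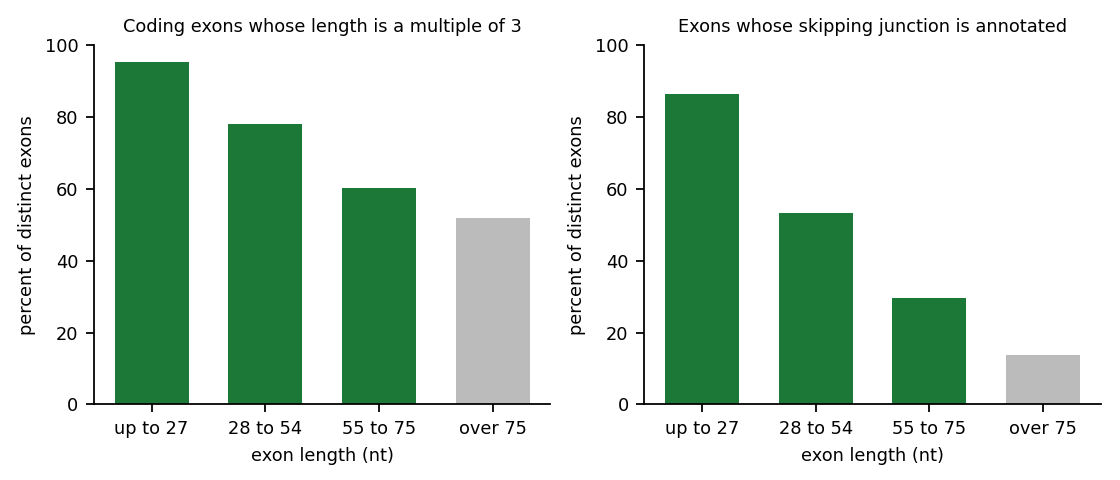
Percent of distinct exons (y axis) by exon length (x axis, nt), with short exons in green and longer cassette exons in grey. The left panel shows coding exons whose length is a multiple of 3, at 95.2%, 78.2%, 60.3% and 52%, and the right panel shows exons whose skipping junction is annotated, at 86.4%, 53.4%, 29.6% and 13.7%, so that both fall from the shortest to the longest class.

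Exons that keep the frame were the more variable ones in use. Among the 234 short exons with at least 10 reads in all 18 libraries, the 175 with a length divisible by 3 had a median *control(RNAi)* level of 48.7%, and 67.4% of them lay between 5% and 95%. The 59 with another length had a median of 93.6%, and 42.4% lay between these limits. Exons that keep the frame and levels between these limits were both commoner at the shorter lengths. Length was not held equal here, so frame and length cannot be told apart. Short exons also stood between shorter introns, with a median of 162 nt upstream and 247 nt downstream, against 424 nt and 382 nt for longer cassette exons. They were spread over all chromosomes, with 97 to 128 on each, and 17.5% were on X against 10.8% of the longer ones.

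There were 44 exons of at most 27 nt, in 43 genes, and 41 of them had a length divisible by 3. The commonest lengths were 27 nt with 13 exons, 24 nt with 9, 21 nt with 8 and 18 nt with 7, while 15 nt and 12 nt had 2 exons each. At least 10 reads in every library were found for 23 of the 44. In 22 of these 23 the mean level was at most 59.1% in every group. Hosts included *unc-44* ankyrin, the *unc-16* scaffold of axonal transport, *spc-1* spectrin, *nmy-1* non-muscle myosin and *tom-1* tomosyn, a regulator of synaptic vesicle release.

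The 15 nt exon of *rme-1*, an EHD ATPase of endocytic recycling, lies at V:6216480-6216494 and was 1 of the 2 with the most reads. Its levels were 43.2%, 43.8% and 31.3% in *ints-4(RNAi)* with cadmium and 19%, 23.1% and 37.4% in *ints-4(RNAi)* without. They were 31.6%, 44.9% and 28.6% in *numr-1/2(RNAi)* with cadmium and 45.2%, 44.8% and 47.3% without. In *control(RNAi)* they were 27.2%, 37.1% and 31.6% with cadmium and 39.6%, 49.7% and 42.2% without. In these libraries the exon was thus included in a minority of transcripts, it passed the test in 0 of the 7 comparisons, and its levels rested on 16 to 62 inclusion reads among 918 to 1434 reads. The 24 nt exon of *efk-1*, the eEF2 kinase, had group means of 27.5% ± 3.6, 28.5% ± 7.24, 29.4% ± 5.56, 21.5% ± 6.49, 33.2% ± 12.2 and 37.7% ± 1.53 (SD, n = 3 each) in the same order of groups. The 27 nt exon of *gpdh-2*, a glycerol-3-phosphate dehydrogenase, stayed between 14.4% and 24% in the 6 means, and the 18 nt exon of *unc-44* between 23.3% and 33.4%. None of these changed past the test in any comparison. Lower levels, with every group mean between 0.40% and 10.7%, were held by the exons of *W05B5.1* (21 nt), *T10C6.6* (27 nt) and *Y37E3.17* (21 nt).

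**Figure D3:**
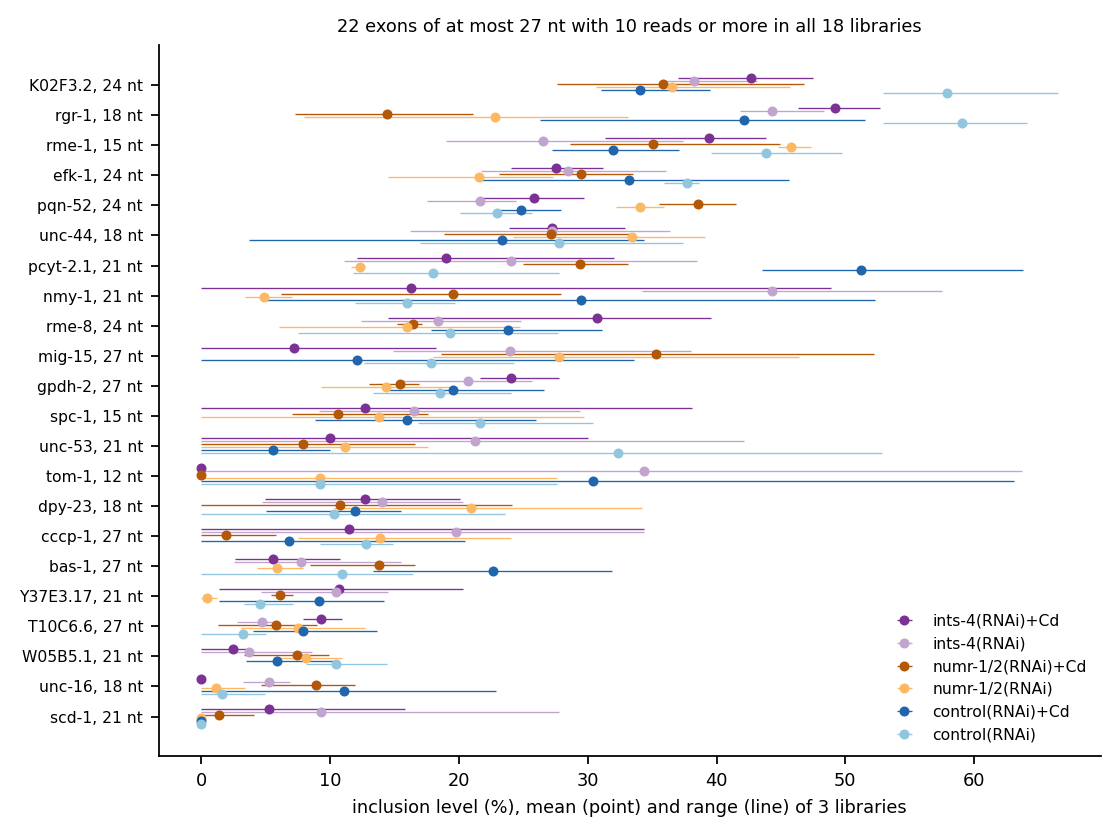
Inclusion level (x axis, percent) of 22 of the 23 exons of at most 27 nt with at least 10 reads in all 18 libraries. Points are group means, lines run from the lowest to the highest of 3 libraries, and colours mark the 6 groups. The exon of *rgr-1* is lowest in the numr-1/2(RNAi) groups, and most ranges of 1 exon overlap between groups.

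Across groups the short exons as a whole kept their level. Over the 234 exons with at least 10 reads everywhere, the median level was 62.1% in *ints-4(RNAi)* with cadmium, 58.4% in *ints-4(RNAi)*, 62.5% in *numr-1/2(RNAi)* with cadmium, 55.2% in *numr-1/2(RNAi)*, 61.2% in *control(RNAi)* with cadmium and 59.7% in *control(RNAi)*. The medians of the longer exons lay between 96.9% and 97.6%. The 6 group means of a short exon spanned a median of 10.03 percentage points, against 4.3 points for longer exons, and the span was over 20 points in 37 short exons (15.8%), against 10.9% of longer ones. Spread between libraries moved with this span. The median SD over the 3 *control(RNAi)* libraries was 3.44 points for short and 1.70 points for longer exons. Among exons with a mean level of 5% to 95%, the SD within groups was 7.10 against 6.70 points and the span 13.7 against 13.4 points.

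Each comparison tested inclusion against skipping reads per library with a quasi-binomial model, whose dispersion was moderated with limma, and p-values were adjusted over the splicing events of all 5 types. Between 284 and 403 short exon events could be tested per comparison, 556 in at least 1 and 219 in all 7. The remaining 173 were tested in none, for want of 10 reads in each library of 2 groups or of both forms. At an adjusted p below 0.05, 30 of 2376 tests passed, 14 with a higher and 16 with a lower level, and they concerned 21 exons of 20 genes. Of these 21 exons 17 (81%) had a length divisible by 3, against 67.7% of the 526 distinct exons tested, and their median length was 49 nt against 60 nt. Limma on the log2 ratio of the reads kept 1 of 26 named calls, so single calls are sensitive to the test. Comparisons with the same control libraries are not independent of each other.

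**Figure D4:**
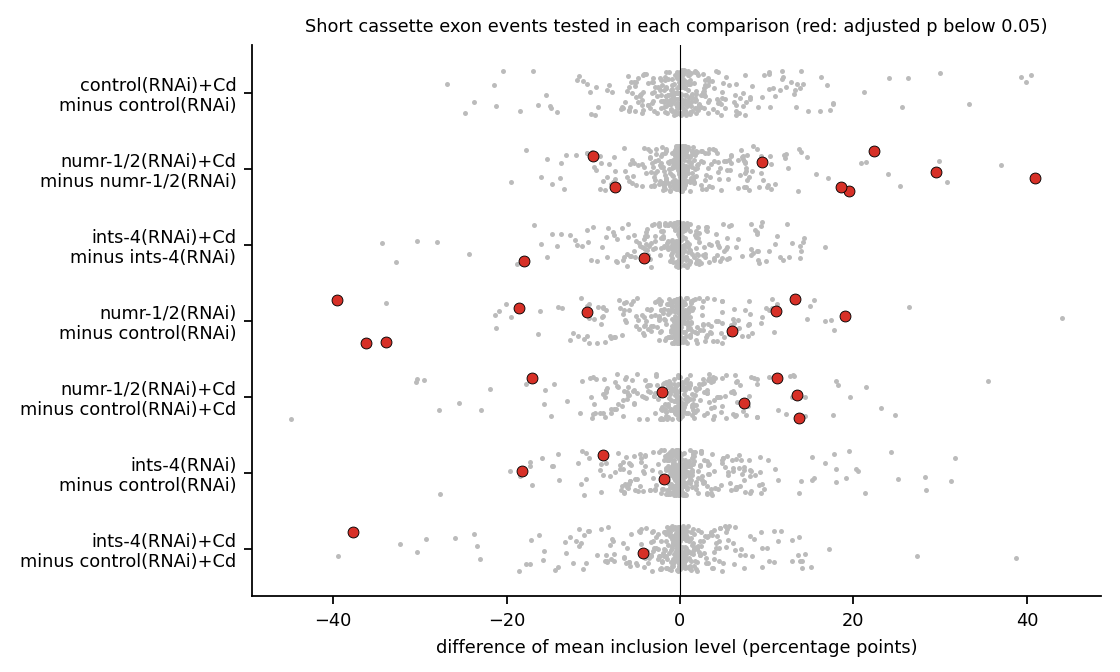
Difference of the mean inclusion level (x axis, percentage points) of each short exon event tested in the 7 comparisons (rows). Grey points did not pass an adjusted p of 0.05, and red points did, 0 of 339 for cadmium in control(RNAi) and at most 9 in any row. Some grey points lie further from 0 than the red ones.

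Cadmium in *control(RNAi)* changed no short exon past the test, although many levels differed. The test passed 0 of 339 events, against 0.24% of all cassette exon events, with a lowest adjusted p of 0.0568. An unadjusted p below 0.05 was found for 41, of which 25 were higher with cadmium, and for 30 by limma on log2 read ratios, which called 0. The count depended on the estimate of the spread, since 9 events passed when all 6 groups shared it, 7 of them higher and 2 lower. The median change was 0.17 points for short and 0.10 points for longer exons, and 15.9% of short exons moved by more than 10 points against 7.73% of longer ones.

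The lowest adjusted p belonged to the 21 nt exon of *pcyt-2.1*, listed as *Y37E3.11*, an enzyme of phosphatidylethanolamine synthesis, which was picked after its values were seen. Its levels were 63.8%, 43.5% and 46.4% with cadmium, against 11.8%, 14.3% and 27.8% in *control(RNAi)* without. The groups did not overlap. The difference was 33.3 points with an adjusted p of 0.0568, so it did not pass. With the spread shared by all 6 groups the adjusted p was 0.00176. Summed pooled expression of 6 vitellogenin genes was 0.152 times that without cadmium, and that of 30 germline and oocyte genes 0.457 times, so the animals also differed in adult transcripts, whose part in these levels was not tested. In whole animals fewer cells of a type and less RNA per cell cannot be told apart.

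Without cadmium, *numr-1/2(RNAi)* changed 9 of 346 short exon events (2.60%), against 1.42% of all cassette exon events. Of the 9, 4 were higher and 5 lower, where 0.904% of all cassette exon events were higher and 0.517% lower. The exons lay in genes of varied function, and 7 are described here with 2 more picked after their values were seen. At an unadjusted p below 0.05 stood 42 events, and by limma on log2 read ratios 33, of which 0 passed the adjustment.

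A large change was that of *gfat-1*, listed as *F07A11.2*, which encodes the rate-limiting enzyme of the hexosamine pathway. Its 39 nt exon at II:11594594-11594632 is on the minus strand. Without cadmium its level was 15.5%, 16.5% and 20.3% in *numr-1/2(RNAi)*, against 46.1%, 47.2% and 60.7% in *control(RNAi)*. The groups were far apart, with means of 17.4% ± 2.53 and 51.3% ± 8.13 (SD, n = 3 each). The exon fell by 33.9 points, a change of −1.61 in the logit of inclusion (SE 0.23, adjusted p = 0.00083), and it passed without each of the 6 libraries in turn.

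The 24 nt exon of *pqn-52*, at I:5569545-5569568, was included more often. The *pqn* genes encode proteins with prion-like stretches rich in glutamine and asparagine. Levels were 32.2%, 35.9% and 34% in *numr-1/2(RNAi)*, against 25.7%, 23% and 20.1% in *control(RNAi)*. The mean of 34.0% ± 1.85 stood above that of 22.9% ± 2.80 (SD, n = 3 each) with no overlap, and the logit rose by 0.55 (SE 0.09, adjusted p = 0.0019), a call kept without each library in turn. Its 361, 442 and 357 inclusion reads, against 200, 166 and 145 in *control(RNAi)*, make it the best measured of the microexons that changed.

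The other microexon that changed was the 18 nt exon of *rgr-1*, at III:9396931-9396948, in the homologue of Mediator subunit MED14. It was included at 33.1%, 27.4% and 8% in *numr-1/2(RNAi)*, against 64.1%, 60.2% and 52.9% in *control(RNAi)*. The groups did not overlap, but the levels rested on 10, 7 and 1 inclusion reads against 16, 18 and 22. The exon fell by 36.2 points (logit −1.34, SE 0.38, adjusted p = 0.0492), and the call was kept without the third *control(RNAi)* library and lost without each of the other 5, with adjusted p up to 0.162.

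A muscle gene and a protease gene moved in opposite directions. The 33 nt exon of *deb-1*, the vinculin of muscle dense bodies, at IV:7086067-7086099, had levels of 93.7%, 87.8% and 94.1% in *numr-1/2(RNAi)*, against 79.8%, 79.5% and 76.4% in *control(RNAi)*. It rose by 13.3 points without overlap (logit 1.16, SE 0.23, adjusted p = 0.0087), and the call was lost without the first or the third *numr-1/2(RNAi)* library, with adjusted p up to 0.0794. The 39 nt exon of *nas-4*, an astacin metalloprotease, at III:6412436-6412474, had 72.1%, 23.2% and 74.9%, against 95.1%, 99.2% and 94.5%. It fell by 39.5 points (logit −2.62, SE 0.52, adjusted p = 0.0064), and passed without each library in turn. The second *numr-1/2(RNAi)* library, with 4 inclusion reads among 32 reads, was far below the other 2, and without it the difference was −22.8 points.

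The remaining changes were in a transcription kinase, an actin regulator and 2 further genes. The 48 nt exon of *cdk-9*, the kinase of the elongation factor P-TEFb, at I:11324872-11324919, was at 95.8%, 100% and 100% in *numr-1/2(RNAi)*, against 83.5%, 77.1% and 78.2% in *control(RNAi)*, a rise of 19 points (logit 2.84, SE 0.75, adjusted p = 0.0087). Without the second *numr-1/2(RNAi)* library its adjusted p was 0.0574. The 75 nt exon of *eps-8*, an actin-capping and bundling adaptor, at IV:14894167-14894241, was at 19.8%, 17.1% and 10.8%, against 35.2%, 39.5% and 28.6%. It fell by 18.5 points (logit −0.95, SE 0.19, adjusted p = 0.0099), and neither exon overlapped between groups. The *eps-8* call was lost without the second or the third *numr-1/2(RNAi)* library, with adjusted p up to 0.0799. The 69 nt exon of *xbx-6* fell by 10.7 points (adjusted p = 0.0161), and the 63 nt exon of *Y71F9AL.10* rose by 6 points (adjusted p = 0.0492), with 1 *control(RNAi)* library also at 100%. The *xbx-6* call was lost without the first or the third *numr-1/2(RNAi)* library, with adjusted p up to 0.0966, and that of *Y71F9AL.10* without each library but the first *control(RNAi)* one, with adjusted p up to 0.217.

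These exon changes came with a broad shift in stage-dependent transcripts. In the authors' pooled values for *numr-1/2(RNAi)* against *control(RNAi)*, 39 of 39 sperm genes were higher with a sum 2.59 times as large, 30 of 30 germline and oocyte genes with a sum 2.06 times as large, and 6 of 6 vitellogenins with a sum 3.94 times as large. Of the moulting and epidermis genes 15 of 18 were lower, with a sum 0.231 times that in *control(RNAi)*, and 20 of 20 neuron genes with a sum of 0.580 times. Among the hosts *gfat-1* stood at 1.24 times, *pqn-52* at 1.46 times, *deb-1* at 0.655 times and *nas-4* at 0.549 times the *control(RNAi)* value. The part of stage and tissue makeup in the exon levels was not tested.

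**Figure D5:**
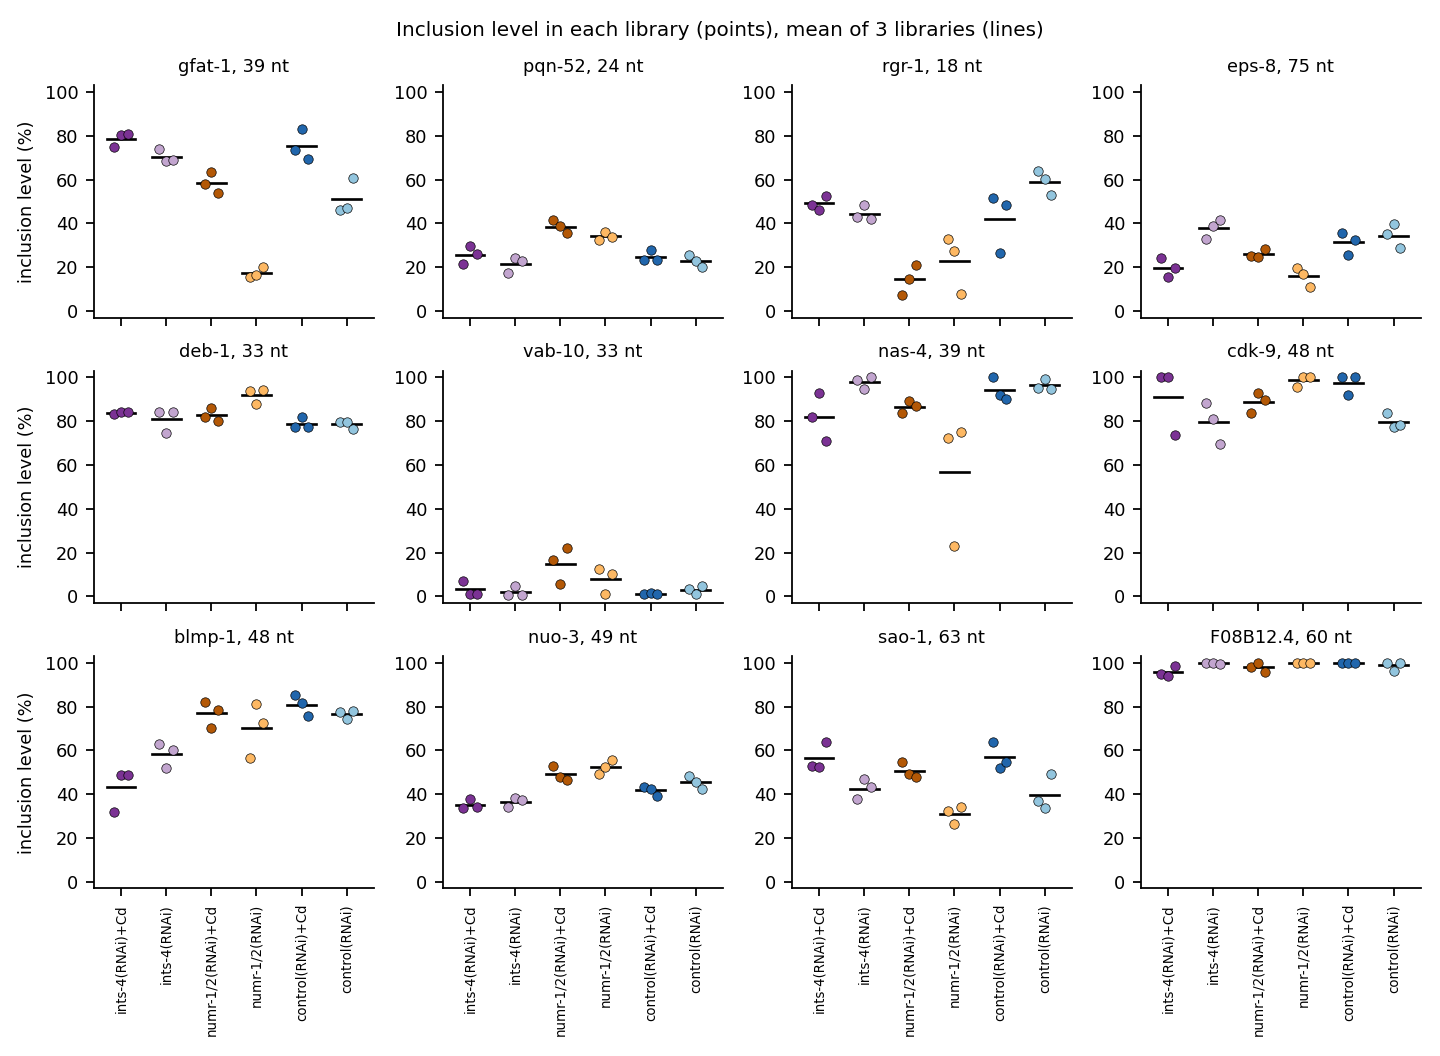
Inclusion level (y axis, percent) of 12 short exons that passed the test in at least 1 comparison, in all 18 libraries. Points are libraries and horizontal lines are means of 3, in the 6 groups along the x axis. The exon of *gfat-1* is lowest in numr-1/2(RNAi) without cadmium, at 15.5% to 20.3%, and that of *blmp-1* is lowest in ints-4(RNAi) with cadmium, at 31.9% to 48.8%.

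With cadmium, *numr-1/2(RNAi)* against *control(RNAi)* changed 6 of 289 events (2.08%), against 2.11% of all cassette exon events. Of the 6, 4 were higher and 2 lower, against 1.31% and 0.801% of all cassette exon events. The share was thus near that of the cassette exons at large. Before adjustment 36 had a p below 0.05, and limma on log2 read ratios gave 30 before and 0 after adjustment.

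The exons of *pqn-52* and *gfat-1* differed between these RNAi treatments with cadmium too. That of *pqn-52* stood at 41.5%, 38.7% and 35.5% in *numr-1/2(RNAi)* with cadmium, against 23.1%, 27.9% and 23.4% in *control(RNAi)* with cadmium. It rose by 13.8 points (logit 0.64, SE 0.10, adjusted p = 0.00095), and passed without each library in turn. That of *gfat-1* stood at 57.9%, 63.6% and 53.7%, against 73.7%, 83.2% and 69.4%. It fell by 17 points (logit −0.82, SE 0.23, adjusted p = 0.0439), though the call was lost without any 1 of the *numr-1/2(RNAi)* libraries or without the second *control(RNAi)* one, with adjusted p up to 0.256.

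Other exons passed the test with cadmium and not without it. The 33 nt exon of *vab-10*, a spectraplakin that links the cytoskeleton to epidermal attachments, at I:11749129-11749161, had levels of 16.5%, 5.5% and 22.2% in *numr-1/2(RNAi)* with cadmium, against 1.3%, 1.6% and 0.9% in *control(RNAi)* with cadmium. It rose by 13.5 points (logit 2.54, SE 0.80, adjusted p = 0.0207), and without cadmium the levels were 12.6%, 1.3% and 10.2%, against 3.5%, 1% and 5%. With cadmium these levels rested on 16, 5 and 22 inclusion reads in *numr-1/2(RNAi)*, against 2, 2 and 1 in *control(RNAi)*. The call was lost without the first or the third *numr-1/2(RNAi)* library with cadmium, with adjusted p up to 0.162. The 52 nt exon of *fubl-1*, listed as *C12D8.1*, an RNA-binding protein with KH domains, stood at 91.9%, 90.6% and 94.2%, against 84.4%, 82.6% and 76.2%. It rose by 11.17 points (adjusted p = 0.0217), and its length shifts the frame. Leaving out any 1 *numr-1/2(RNAi)* library, or the third *control(RNAi)* one, ended this call, with adjusted p up to 0.144. The sixth exon, of *F08B12.4*, is described with *ints-4(RNAi)*. Whether a difference itself depended on cadmium was tested through the interaction below.

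Cadmium in *numr-1/2(RNAi)* changed 8 of 370 events (2.16%), against 1.54% of all cassette exon events. With cadmium 6 were higher and 2 lower, against 0.96% and 0.584% of all cassette exon events. There were 51 with an unadjusted p below 0.05, and 37 by limma on log2 read ratios, which called 0 after adjustment. The largest was again *gfat-1*, at 57.9%, 63.6% and 53.7% with cadmium, against 15.5%, 16.5% and 20.3% without. It rose by 41 points (logit 1.89, SE 0.20, adjusted p = 3.43e-05), the call holding without each library. In *control(RNAi)* the same exon was 24.1 points higher with cadmium (adjusted p = 0.0655, and 0.00206 with the spread shared by all 6 groups). In *ints-4(RNAi)* the means were 78.6% ± 3.15 with and 70.5% ± 3.05 without (SD, n = 3 each).

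The 63 nt exon of *sao-1*, at V:13964759-13964821, stood at 54.6%, 49.2% and 47.9% with cadmium, against 32.5%, 26.4% and 34.2% without. It rose by 19.5 points (logit 0.84, SE 0.16, adjusted p = 0.0103), and its adjusted p was 0.0753 without the second library without cadmium. Cadmium came with 17 points more in *control(RNAi)* (adjusted p = 0.160) and 13.8 points more in *ints-4(RNAi)* (adjusted p = 0.321). The level was thus higher under all 3 RNAi clones and passed the main test in 1. With the spread shared by all 6 groups the exon also passed in *control(RNAi)* (adjusted p = 0.0281). The 72 nt exon of *T12G3.2* rose by 18.6 points (adjusted p = 0.0307), with 74.5%, 68.1% and 79.5% against 58%, 51.3% and 57%. Its levels in *control(RNAi)* were 72.1%, 71.6% and 77.1% with cadmium, against 56.5%, 56.3% and 68.1% without (adjusted p = 0.179).

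The calls of *mctp-1*, *F25B5.3* and *pqn-22* were each lost without at least 3 of the 6 libraries, as was that of *T12G3.2* without 4, with adjusted p up to 0.148 for *T12G3.2*, 0.185 for *mctp-1*, 0.221 for *F25B5.3* and 0.252 for *pqn-22*. The 36 nt exon of *mctp-1*, listed as *D2092.1*, which encodes a membrane protein with C2 domains, is not annotated as an exon, and it rose by 29.5 points (adjusted p = 0.0441), with 69.2%, 67.1% and 77.3% against 51.8%, 36.4% and 36.8%. The libraries compared held 37 to 77 reads. Under the spread shared by all 6 groups the *mctp-1* call was lost (adjusted p = 0.186). The 55 nt exon of *F25B5.3* rose by 22.4 points (adjusted p = 0.0239), with 11.6%, 20.5% and 40.7% against 1%, 4.6% and 0%. These levels rested on 2, 7 and 11 inclusion reads against 1, 6 and 0, among 24 to 46 reads against 137 to 230. The pooled expression of its host was 4102 with cadmium against 16729 without. The 63 nt exon of *pqn-22* fell by 10 points (adjusted p = 0.0441), with 72.6%, 67.4% and 75.8% against 80.5%, 85.8% and 79.5%. The 2 others, in *T22D1.3* (36 nt, 9.4 points higher, adjusted p = 0.0433) and *Y71F9AL.10* (63 nt, 7.53 points lower, adjusted p = 0.0112), were named after their values were seen. The *T22D1.3* call was lost without 5 of the 6 libraries, with adjusted p up to 0.209, and that of *Y71F9AL.10* without the second library without cadmium, with an adjusted p of 0.0753. Beside these changes the summed moulting and epidermis genes stood 2.23 times as high with cadmium, and the vitellogenins at 0.185 times, and their part was not tested.

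Without cadmium, *ints-4(RNAi)* changed 3 of 403 events (0.744%), against 0.92% of all cassette exon events. The 3 were lower, as were 0.498% of all cassette exon events, while 0 were higher, against 0.422%. An unadjusted p below 0.05 was found for 57, of which 29 were lower, and for 41 by limma on log2 read ratios, which called 0. The share of short exons called was near that of all cassette exons. The 48 nt exon of *blmp-1*, a PRDM1-type zinc finger transcription factor of developmental timing and epidermis, at I:10413362-10413409, had levels of 62.8%, 52.1% and 60.4% in *ints-4(RNAi)*, against 77.6%, 74.5% and 78% in *control(RNAi)*. It fell by 18.3 points without overlap (logit −0.82, SE 0.16, adjusted p = 0.0298), a call lost without any 1 *ints-4(RNAi)* library, with adjusted p up to 0.161. This call was also lost with the spread shared by all 6 groups (adjusted p = 0.0604). In the pooled values for this comparison the 6 vitellogenins were all lower with a sum 0.187 times that in *control(RNAi)*, 39 of 39 sperm genes were higher with a sum 1.27 times as large, and 25 of 30 germline and oocyte genes were lower with a sum of 0.754 times. Of the moulting and epidermis genes 16 of 18 were lower with a sum of 0.764 times, while *blmp-1* itself stood at 1.001 times. The part of these differences in the exon levels was not tested.

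The other 2 events were overlapping versions of 1 exon of *nuo-3*, a subunit of respiratory complex I, and count as a single observation. The 49 nt version at IV:14797134-14797182 stood at 34.1%, 38.4% and 37.2% in *ints-4(RNAi)*, against 48.3%, 45.4% and 42.5% in *control(RNAi)*. It fell by 8.83 points (logit −0.38, SE 0.07, adjusted p = 0.0267) on 1897 to 1976 reads per library in *ints-4(RNAi)* and 1461 to 1808 in *control(RNAi)*, and the call was lost without any 1 *ints-4(RNAi)* library, with adjusted p up to 0.2002. The 52 nt version, which reaches 3 nt further, was listed at 4.53% ± 0.404 against 6.37% ± 0.651 (SD, n = 3 each, adjusted p = 0.0298). Both rest on the same skipping reads and on inclusion reads that differ little, and the levels differ mainly because the skipping form was credited with 99 nt in the first and 8 nt in the second. With cadmium the 49 nt version was also higher in *numr-1/2(RNAi)*, at 52.7%, 48% and 46.6%, against 43.5%, 42.5% and 39.1% in *control(RNAi)* (7.4 points, adjusted p = 0.0476), with adjusted p up to 0.253 without 1 library.

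With cadmium, *ints-4(RNAi)* against *control(RNAi)* changed 2 of 345 events (0.580%), against 0.188% of all cassette exon events. Both were lower, against 0.0938% of all cassette exon events, and 0 were higher, against 0.0938%. Of the 34 with an unadjusted p below 0.05, 27 were lower, and limma on log2 read ratios gave 20 before and 1 after adjustment. No such count for longer exons is set beside the 27, so they are not read as a trait of short exons. The *blmp-1* exon stood at 31.9%, 48.8% and 48.6% in *ints-4(RNAi)* with cadmium, against 85.1%, 81.7% and 75.6% in *control(RNAi)* with cadmium. It fell by 37.7 points (logit −1.67, SE 0.24, adjusted p = 0.0291). The call was lost without any 1 *ints-4(RNAi)* library, with adjusted p up to 0.217. The second was the 60 nt exon of *F08B12.4*, at X:11407494-11407553, with 94.8%, 93.9% and 98.6% against 100% in each of the 3 libraries (adjusted p = 0.0451), a difference of −4.23 points on 3823 to 4061 reads per library in *ints-4(RNAi)* with cadmium and 2440 to 2849 in *control(RNAi)* with cadmium. Without the first or the second *ints-4(RNAi)* library it did not pass, with adjusted p up to 0.269.

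Cadmium in *ints-4(RNAi)* changed 2 of 284 events (0.704%), against 0.508% of all cassette exon events. Both were lower with cadmium, against 0.29% of all cassette exon events, and 0 were higher, against 0.218%. Before adjustment 19 had a p below 0.05, and limma on log2 read ratios gave 16 before and 0 after adjustment. The *F08B12.4* exon was at 94.8%, 93.9% and 98.6% with cadmium, against 100%, 100% and 99.6% without (−4.1 points, adjusted p = 6.45e-06), which held without each library in turn. Limma on log2 read ratios gave an adjusted p of 0.833. In *control(RNAi)* without cadmium its levels were 100%, 96.3% and 100%, so 1 untreated library lay within the range of the changed ones. None of its calls could be refitted on read counts with a single possible split. The exon was also lower in *numr-1/2(RNAi)* with cadmium than in *control(RNAi)* with cadmium, at 98.1%, 100% and 95.6% against 100% in each, where the groups overlap (adjusted p = 0.0103, and up to 0.152 without the first or the third library of *numr-1/2(RNAi)*). The *eps-8* exon was at 24.2%, 15.5% and 19.6% with cadmium, against 32.8%, 39% and 41.6% without. It fell by 18 points (logit −0.92, SE 0.21, adjusted p = 0.0368), and the call was lost without the second library with cadmium or any 1 without, with adjusted p up to 0.262. This call was also lost with the spread shared by all 6 groups (adjusted p = 0.114). The summed vitellogenins stood at 0.537 times and the moulting and epidermis genes at 0.536 times the level without cadmium, and their part was not tested.

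No short exon had a cadmium response that differed between RNAi clones past the test. For *numr-1/2(RNAi)* against *control(RNAi)* 0 of 284 events passed, with 18 at an unadjusted p below 0.05 and a lowest adjusted p of 0.446, in a Wald test with limma-moderated dispersion in which 0 of 2264 events of all types passed. For *ints-4(RNAi)* 0 of 275 passed, with 16 at an unadjusted p below 0.05 and a lowest adjusted p of 0.207, against 0.0925% of events of all types. The lowest unadjusted p of the first was that of *cdk-9*, whose exon was 17.7 points higher with cadmium in *control(RNAi)* and changed by −9.9 points in *numr-1/2(RNAi)* (interaction logit −4.11, SE 1.11, adjusted p = 0.446). For *gfat-1* the rise with cadmium was larger in *numr-1/2(RNAi)* than the difference in *control(RNAi)*, but the interaction had an adjusted p of 0.891.

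Short exons were also read by the role of their host, over 6 lists of genes. Of all short exon tests over the 7 comparisons 1.26% passed, so a list with few tests would hold 0 or 1 call at that share. In the neuron and synapse list 25 of 105 genes held 32 short exons, and 9 of these had at least 10 reads in every library. Their median level was 14.7%. Of the 9, 8 had group means spanning more than 10 points, and the share of all short exons is given with the cytoskeleton list below. None passed in the 76 tests, with 5 at an unadjusted p below 0.05 and limma calling 0. Examples are the 36 nt exon of *egl-8*, a phospholipase C beta of neurons, with means of 23.4% to 45%, the 57 nt exon of *unc-16* with 0.70% to 3.6%, and the 30 nt exon of *unc-76*, a FEZ-type axon outgrowth protein, with 6.40% to 19.7%.

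In the muscle and sarcomere list 13 of 64 genes held 23 short exons, and 5 had enough reads everywhere, with a median level of 17.2%. The *deb-1* exon was the 1 that changed. The 28 nt exon of *tnt-3*, a troponin T, had means of 34.6% ± 16.2 in *ints-4(RNAi)* with cadmium, 30.6% ± 3.90 in *ints-4(RNAi)*, 56.2% ± 7.66 in *numr-1/2(RNAi)* with cadmium, 54.8% ± 3.85 in *numr-1/2(RNAi)*, 43% ± 20.7 in *control(RNAi)* with cadmium and 44.6% ± 4.52 in *control(RNAi)* (SD, n = 3 each). It passed in no comparison. The exons of *ttn-1*, a titin (68 nt, 4.80% to 13%), and *unc-96*, of the M-line (30 nt, at most 26.4%), stayed low.

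In the matrix and adhesion list 8 of 66 genes held 10 short exons, and *vab-10* was the 1 that changed. Means were 3.63% to 14.6% for the 69 nt exon of *cle-1*, a collagen XVIII, 0% to 14.1% for the 45 nt exon of *gon-1*, an ADAMTS protease, and 13.4% to 34.8% for the 30 nt exon of the adhesion receptor *mua-3*, the last 2 on fewer than 10 reads in some libraries. In the cytoskeleton and transport list 11 of 85 genes held 11 short exons, 10 of them with enough reads. The *eps-8* exon fell in 2 comparisons, and 9 of the 10 spanned more than 10 points, against 50.4% of the 234 short exons. The exon of *wip-1*, a partner of WASP, stayed at 98.6% to 100%.

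Most splicing regulators with enough reads had exons near full inclusion. In that list 7 of 53 genes held a short exon, 5 had enough reads, and their median level was 95%. The group means spanned a median of 3.5 points, a span that levels near 100% limit. Still, 2 of the 5 spanned more than 10 points, and the share of all short exons is given with the cytoskeleton list above. The 34 nt exon of *ptb-1*, picked after its values were seen, spanned 35.6 points on as few as 12 reads in a library. Its mean was 96.7% ± 4.09 in *control(RNAi)* and 61.1% ± 6.44 in *ints-4(RNAi)* with cadmium (SD, n = 3 each). None passed in 43 tests, too few to tell this from the 1.26% of all short exon tests. An unadjusted p below 0.05 was found for 5, and limma called 0. The exons of *mog-4*, a spliceosomal helicase (54 nt, 98.5% to 100%), and *sfa-1*, which binds the branch point (73 nt, 93.6% to 97.1%), were nearly always included, and that of *swp-1* (40 nt, 26.3% to 42.2%) was not. Among signalling kinases and GTPase regulators 13 of 120 genes held 14 short exons. None of these passed in 60 tests, again too few to tell from 1.26%, with 14 at an unadjusted p below 0.05 and limma calling 0. There the 69 nt exon of the polarity kinase *par-1* had means of 31.4% to 39%, the 27 nt exon of the kinase *mig-15* 7.17% to 35.3%, the 68 nt exon of the Rap exchange factor *pxf-1* 91.1% to 100%, and the untranslated 64 nt exon of the 14-3-3 gene *par-5* 99% to 99.9%.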

How the data were processed

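The splicing tables were made by the authors with rMATS from oligo(dT)-primed, paired reads aligned with HISAT2 2.1.0. The deposited inclusion levels are fractions of reads per library after division by the length each form offers to reads, and are given here as percent. The inclusion and skipping counts of the 3 libraries of a group were deposited joined in 1 cell, often without commas. They were split so that they give back the deposited levels, and 99.8% of 37570 pairs were read. For 79.7% of pairs, commas or the levels left a single split. In 7563 pairs several splits gave back the levels, and the split with the most even library totals was taken. This rule assumes totals within a ratio of 3. On 13563 pairs whose split the levels settle it read 12727, all right, but it could not be checked on the pairs that needed it. A library is known only by its position in a cell. The splicing columns are headed sample 1 and sample 2, and their groups were set from the label that names each workbook and from the cells that workbooks share. The expression values are a read signal that the authors counted with HTSeq 0.6.1, normalized within each comparison and deposited pooled per group, without replicates. The p-values, FDR and fold columns of the authors' own comparisons were deposited with them and were not used. The submitters' notes also name Cufflinks 2.1.1.

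The build used for alignment is not named in the sources read. Exon starts matched the WBcel235 annotation for 97.7% and ends for 98.0% of short exons, coordinates are 1-based, and genes later renamed carry their annotation name. An event was tested where each library of the 2 groups had 10 reads or more and both forms were read, with a quasi-binomial F test of inclusion against skipping reads, whose dispersion limma 3.58.1 (R 4.3.3) moderated and which was held at 1 or above, and Benjamini-Hochberg adjustment over all 5 event types. Changes are differences of mean level in percentage points and of the logit (natural log odds) of the reads. The error of the test is the spread between libraries, with the sampling of reads as its lower limit. Reads without molecular identifiers are not independent molecules, so this limit can be too small. Tables and figures were made with Python 3.11.15, pandas 2.3.3, NumPy 2.4.6 and matplotlib 3.10.9, and the model was tested on simulated data. Genes were named as the called exons with the largest change per comparison (up to 6, at least 20 reads, no overlap), called exons of at most 27 nt and the 6 others with the most reads, exons called in 3 or more comparisons, and up to 4 with the most reads per host list. The members and lists were chosen with earlier results of these data known. Alternatives were another test, other read minimums, a shared spread, other length limits, 1 event per exon and leaving out each library. No genome sequence was used, so no flanking motif was searched. A few exons are not reported here.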

Additional observations from a re-analysis of the deposited data

Results flagged for a closer look

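For the exons of *eps-8* and *nas-4* every library with cadmium lay below those without in *ints-4(RNAi)* and above those without in *numr-1/2(RNAi)*. This difference was not tested. The share of all short exons with such a pattern is not given, so it is not read as a trait of these exons. The 75 nt exon of *eps-8* changed by −18 points in *ints-4(RNAi)* and by 10.2 points in *numr-1/2(RNAi)*, which is −28.2 points between them. The first change passed the test (adjusted p = 0.0368) and the second did not (adjusted p = 0.0961). The 39 nt exon of *nas-4* changed by −16 points in *ints-4(RNAi)* and by 29.9 points in *numr-1/2(RNAi)*, which is −45.9 points between them, and neither change passed (adjusted p = 0.139 and 0.0856). The change in *numr-1/2(RNAi)* was 13.1 points without the second library without cadmium, which stood at 23.2% beside 72.1% and 74.9%. Both had a low level in *numr-1/2(RNAi)* without cadmium, with means of 15.9% ± 4.62 for *eps-8* and 56.7% ± 29.1 for *nas-4* (SD, n = 3 each).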

How the results depend on the processing

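The counts of short exons called depended on the test and the spread it assumed, and no named difference turned round under any alternative. Limma on the log2 ratio of the reads called 0 for cadmium in *control(RNAi)*, 0 and 0 for *numr-1/2(RNAi)* without and with cadmium, 0 and 1 for *ints-4(RNAi)* without and with cadmium, and 0 for cadmium in either of these clones. Limma on the deposited levels gave 1 for cadmium in *control(RNAi)*, 2 and 0 for *numr-1/2(RNAi)* without and with cadmium, 1 for *ints-4(RNAi)* with cadmium, and 1 each for cadmium in *numr-1/2(RNAi)* and in *ints-4(RNAi)*. With all 6 groups sharing the spread the counts were 9 for cadmium in *control(RNAi)*, 15 and 11 for *numr-1/2(RNAi)* without and with cadmium, and 1 for cadmium in *ints-4(RNAi)*. With no filter on low reads 1 was called for *ints-4(RNAi)* with cadmium and 5 for cadmium in *numr-1/2(RNAi)*. With a limit of 90 nt the counts were 1 for cadmium in *control(RNAi)*, 14 for *numr-1/2(RNAi)* without cadmium and 5 for *ints-4(RNAi)* without cadmium, and with 60 nt they were 4 and 1 for cadmium in *numr-1/2(RNAi)* and in *ints-4(RNAi)*. Only reads with a single possible split, chosen after seeing the data, gave 1 each for cadmium in *control(RNAi)*, cadmium in *ints-4(RNAi)* and *ints-4(RNAi)* with cadmium.

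Without each library in turn the counts ran from 0 to 2 for cadmium in *control(RNAi)*, 5 to 13 for *numr-1/2(RNAi)*, 0 to 6 for *ints-4(RNAi)*, 3 to 11 for cadmium in *numr-1/2(RNAi)*, 1 to 3 for cadmium in *ints-4(RNAi)*, 1 to 9 for *numr-1/2(RNAi)* with cadmium and 0 to 4 for *ints-4(RNAi)* with cadmium. Each of the 3 *ints-4(RNAi)* libraries, left out, took its count without cadmium to 0, and so did the first and the second *ints-4(RNAi)* library with cadmium, by column position, for the comparison with cadmium. Of the 26 named calls 26 were kept with a minimum of 20 reads, 22 with the shared spread, 21 without a filter, 21 of 23 with single splits, 94 of 156 without 1 library, 1 with limma on the log2 ratio and 0 with limma on the deposited levels. Those lost with the shared spread were *blmp-1* in *ints-4(RNAi)* without cadmium, *eps-8* for cadmium in *ints-4(RNAi)*, and *mctp-1* and *T12G3.2* for cadmium in *numr-1/2(RNAi)*. The calls of *gfat-1* without cadmium and for cadmium in *numr-1/2(RNAi)*, of *pqn-52*, of *nas-4* and of *F08B12.4* for cadmium in *ints-4(RNAi)* were kept without any 1 library. No paired analysis was possible because the columns carry no replicate number and give a library by its position alone.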

Other observations

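The 24 nt exon of *K02F3.2* stood at 31%, 31.7% and 39.5% in *control(RNAi)* with cadmium, against 52.9%, 66.5% and 54.2% in *control(RNAi)* without. The groups did not overlap, and the difference of −23.8 points had an adjusted p of 0.0642 in the quasi-binomial test. With the spread shared by all 6 groups this was 0.00801. In the other 4 groups its means were 42.6% ± 5.29 in *ints-4(RNAi)* with cadmium, 38.2% ± 4.22 in *ints-4(RNAi)*, 35.9% ± 9.87 in *numr-1/2(RNAi)* with cadmium and 36.5% ± 8.07 in *numr-1/2(RNAi)* (SD, n = 3 each), so *control(RNAi)* without cadmium stood apart from every other group.

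The 3 widest spans of group means, among short exons with at least 10 reads in every library, belonged to exons that keep the frame. Most exons of that set keep it, so this is not read as a trait of such exons. After *gfat-1*, with 61.2 points, came the 36 nt exon of *grsp-2* with 50.7 points, from 13.7% ± 15 in *ints-4(RNAi)* up to 64.5% ± 12.0 in *numr-1/2(RNAi)*, on as few as 17 reads in a library. The 57 nt exon of *luc-7L*, listed as *B0495.8*, spanned 50.4 points. Neither passed the test in any comparison.

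Depth limited many short exons, those of at most 27 nt among them. Of these 44 exons, 21 had fewer than 10 reads or no entry in some library. The share was larger over all short exons, so it is not read as a trait of the shortest. The inclusion form of an exon of at most 27 nt offers few positions to reads, so a difference was often not detectable at this depth.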
